A study of Canis lupus familiaris with 10 samples.

Results

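The proteasome genes measured here were the subunit genes named PSMA, PSMB, PSMC or PSMD followed by a number. They were taken from probe sets that carry exactly 1 gene symbol in the platform annotation, with the probe set of the highest mean signal used for each gene. This gave 36 of the 15947 genes named on the array. They comprise 12 genes of the constitutive core rings, 16 of the base and lid of the regulatory particle, 3 chaperones that assemble the base, the 3 immunoproteasome genes and 2 tissue-restricted core genes. Of the 36 genes, 33 passed the signal filter, a log2 signal above 7.21 on at least 2 arrays. PSMB8, PSMA8 and PSMB11 did not and were not tested.

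Transcript levels came from MDCK, a dog kidney epithelial line, in a calcium switch that opens cell junctions and lets them form again. A line that overexpresses human BLT2, a receptor for the lipid 12-HHT, was set beside a Mock line. Each line was sampled as a confluent culture in DMEM with 10% FCS (0 h), after 2 h and after 18 h in calcium-free SMEM, and after 2 h of return to high-calcium DMEM that followed the 18 h, without or with 200 nM 12-HHT. Each of these 10 combinations had 1 array, hybridised with RNA mixed from 3 preparations. Whether either line is a single clone is not stated in the labels. Medium changed together with calcium at the calcium-free steps, and serum is named in the labels for 0 h alone. No culture kept in calcium for the same time was among the arrays. The effects of calcium, medium, serum and time in culture thus cannot be told apart. No probe set carried the receptor symbol LTB4R2 in the annotation used here, so its overexpression was not checked here.

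The proteasome degrades proteins that carry ubiquitin chains. Its core particle is a barrel of alpha rings, which gate entry, around beta rings, in which PSMB6, PSMB7 and PSMB5 cut protein chains. The regulatory particle caps the barrel. Its base holds ATPases that unfold substrates and its lid removes ubiquitin. Interferon signalling is known to induce PSMB9, PSMB10 and PSMB8, which take the places of these cutting subunits to form the immunoproteasome and favour peptides for MHC class I. Cells that lose proteasome activity are known to raise most subunit genes together through the transcription factor NFE2L1.

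Array medians lay between 7.16 and 7.27 (log2 signal), and the BLT2 array at 2 h correlated least with the other 9, at a mean of 0.945. Of the 8 epithelial markers checked, 7 passed the signal filter, among them CDH1 and EPCAM. KRT8 did so at signals near its level, 7.21 to 7.79. The kidney marker CDH16, at 6.73 to 7.28, was above that level on 1 array and did not pass. In the other marker lists 1 of 7 fibroblast, 1 of 5 endothelial and 2 of 6 leukocyte markers passed. Of these lists, 5 fibroblast, 4 endothelial and 4 leukocyte markers were at or below the filter level on every array. Their summed levels spanned 9.28 to 9.73, 8.43 to 8.87 and 8.85 to 9.21 (log2). Single markers moved at some steps: CDH1 and CLDN4 rose by 0.53 ± 0.10 and 1.00 ± 0.23 from 0 h to 18 h. Of the 7 tested epithelial markers, 4 had fitted changes above 0 there and 3 below, the lowest at -0.37. Between the lines 2 of the 7 were called higher in BLT2 and 0 lower, 28.6% against 15.9% of all tested genes. The leukocyte marker CD14, at signals of 7.16 to 7.90, was called lower at 18 h than at 2 h. The endothelial VWF was called lower in BLT2, where its signals of 6.66 to 6.90 all lie below the filter level, against 7.11 to 7.45 in Mock. The part of such cells in the results below was not tested. Fewer cells expressing a gene and less of its RNA per cell cannot be told apart in such bulk samples.

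The distance between the lowest and the highest of the 10 arrays had a median of 0.54 (log2 signal) over the 33 tested members, against 0.67 over the 10498 tested genes. PSMB9 and PSMB6 alone spanned at least 1, which is 6.06% of members, against 22.5% of all tested genes. The narrowest member was PSMD8, a lid subunit, at 0.17. The map of changes from 0 h shows that members did not move as a block, with PSMB6, PSMD1 and PSMD2 below 0 h in both lines while the base ATPases and PSMB1, PSMB7 and PSMD10 were above it at 18 h.

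**Figure D1:**
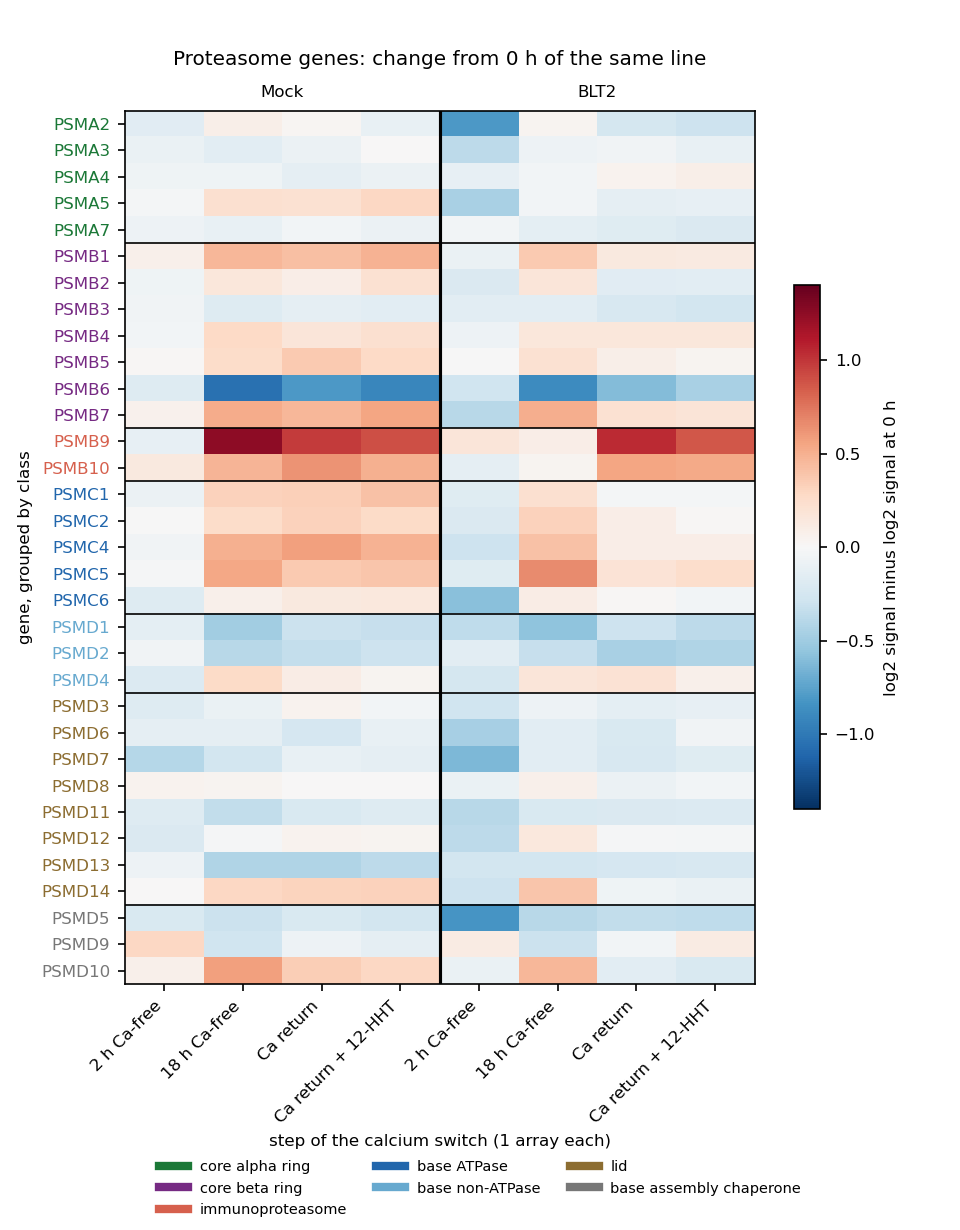
Heat map of the 33 tested proteasome genes (vertical axis, coloured by class) at 4 steps in each line (horizontal axis, 1 array each), where colour is the log2 signal minus that at 0 h in the same line. PSMB6 is lower than at 0 h on all 8 arrays, and PSMB9 is high from 18 h in Mock but from calcium return in BLT2.

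Changes given ± SE below are fitted log2 changes from an additive model of line and step in limma, over all 10 arrays, with Benjamini-Hochberg adjustment over the 10498 genes and a threshold of 0.05. Each step rests on 2 arrays, 1 per line, and the error is what line and step leave unexplained. In a fit without 1 array, the other array of its step is fitted exactly. For a comparison of other steps, leaving out either array thus gives the same fit, with the fitted change unaltered. Between the lines, leaving out either array of any step gives the same fit. The 10 fits without 1 array are therefore not all distinct. Values per array are listed in the order 0 h, 2 h and 18 h calcium-free, calcium return, and calcium return with 12-HHT.

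The largest fitted change of a constitutive subunit was in PSMB6, the catalytic subunit with caspase-like activity. Its log2 signals were 9.64, 9.47, 8.60, 8.83 and 8.73 in Mock and 9.57, 9.29, 8.70, 8.97 and 9.12 in BLT2. Both 18 h arrays lay below every 0 h and 2 h array. Against 0 h it fell by 0.96 ± 0.14 at 18 h (limma adjusted p = 0.00396), to 51.4% of the level at 0 h, and against 2 h it fell by 0.73 ± 0.14 (adjusted p = 0.0137). After 2 h of calcium return it was still lower than at 0 h by a fitted log2 change of -0.70 ± 0.14 (adjusted p = 0.0183). The 18 h change kept its call in all 10 fits that left out 1 array (adjusted p of up to 0.0439). The change at calcium return did not, with an adjusted p of up to 0.121, being lost without either 0 h or either calcium return array, and the change against 2 h was lost without either 18 h array or the Mock 2 h array (up to 0.114).

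PSMB7, the subunit with trypsin-like activity, went the other way. Its log2 signals were 10.25, 10.31, 10.76, 10.71 and 10.79 in Mock and 10.21, 9.83, 10.73, 10.43 and 10.39 in BLT2. Both 18 h arrays lay above both 0 h arrays and both 2 h arrays. It rose by 0.52 ± 0.14 from 0 h to 18 h (limma adjusted p = 0.0306) and by 0.67 ± 0.14 from 2 h to 18 h (adjusted p = 0.0164). Leaving out any 0 h or 18 h array ended the first call (adjusted p of up to 0.226), and leaving out BLT2 at 2 h or at 18 h ended the second (up to 0.157). PSMB5, with chymotrypsin-like activity, read 11.11, 11.12, 11.36, 11.47 and 11.38 in Mock and 11.08, 11.07, 11.29, 11.16 and 11.12 in BLT2. Its range over the 10 arrays was 0.40 and it passed the test in none of the 8 comparisons. The 3 constitutive cutting subunits thus had fitted changes at 18 h of -0.96, 0.52 and 0.24.

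**Figure D2:**
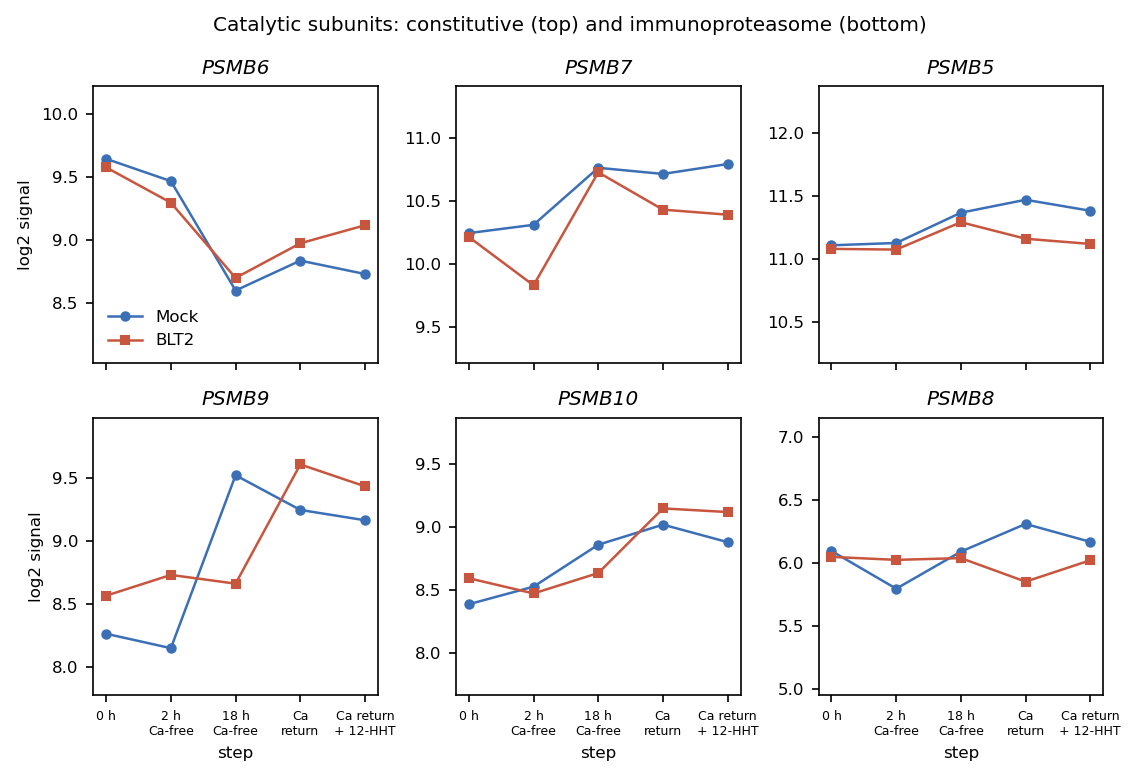
Log2 signal (vertical axes, each panel spanning the same range of values) of the 3 constitutive catalytic subunits and the 3 immunoproteasome subunits at 5 steps (horizontal axes), 1 array per point, Mock as circles and BLT2 as squares. PSMB6 falls in both lines at 18 h, while PSMB9 is at 9.52 in Mock and 8.66 in BLT2 at that step.

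Of the immunoproteasome genes, PSMB9, which replaces PSMB6, had the widest span of all members. Its log2 signals were 8.26, 8.15, 9.52, 9.25 and 9.16 in Mock and 8.57, 8.73, 8.66, 9.61 and 9.43 in BLT2. The 3 high Mock arrays began at 18 h, whereas the 2 high BLT2 arrays were those of calcium return. Against 0 h, the 18 h value differed by 1.26 in Mock and 0.10 in BLT2, and the value at calcium return by 0.98 and 1.04. The fitted changes were 0.68 ± 0.31 at 18 h (limma adjusted p = 0.142) and 1.01 ± 0.31 at calcium return (adjusted p = 0.0663), so neither was called. The timing by line compares single arrays and was not tested. In the test of whether the line difference changed with calcium return, which pools the steps before it, PSMB9 was not called (adjusted p = 0.607).

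PSMB10, which replaces PSMB7, read 8.39, 8.53, 8.86, 9.02 and 8.88 in Mock and 8.60, 8.47, 8.64, 9.15 and 9.12 in BLT2. All 4 arrays of calcium return lay above the other 6 arrays. It rose by 0.59 ± 0.13 from 0 h to calcium return (limma adjusted p = 0.0258), a call lost without either 0 h array or either array of calcium return alone (adjusted p of up to 0.162). At 18 h its difference from 0 h was 0.47 in Mock and 0.04 in BLT2 (adjusted p = 0.192). PSMB8, which replaces PSMB5, read 6.09, 5.79, 6.09, 6.31 and 6.17 in Mock and 6.05, 6.02, 6.04, 5.85 and 6.02 in BLT2. All of these lie below the filter level, where signals carry little information on change.

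In the dog RefSeq annotation (UU_Cfam_GSD_1.0) TAP1, a subunit of the peptide transporter that feeds MHC class I, lies between PSMB8 and PSMB9. TAP1 read 9.30, 9.06, 10.26, 10.24 and 10.26 in Mock and 9.73, 9.60, 9.76, 10.19 and 10.26 in BLT2. Like PSMB9 it was high from 18 h in Mock and from calcium return in BLT2, and it was not called at 18 h against 0 h (limma adjusted p = 0.153). TAP2, on the other side of PSMB8, did not share this timing and was highest at 18 h in both lines. It read 8.29, 8.11, 8.90, 8.57 and 8.69 in Mock and 8.40, 8.02, 8.60, 8.56 and 8.57 in BLT2. PSME1, a subunit of an activator that caps the core in place of the regulatory particle, read 9.93, 9.96, 9.36, 9.40 and 9.33 in Mock and 9.86, 9.94, 8.95, 9.86 and 9.74 in BLT2. It fell by 0.75 ± 0.21 at 18 h (adjusted p = 0.0345), a call lost without either 0 h array or the BLT2 18 h array (up to 0.249), and the BLT2 line alone was back near its 0 h value on calcium return. PSME2, the other subunit of that activator, stayed between 11.46 and 11.68 on every array. The test of a changed line difference takes its error from scatter among steps and pools calcium return without and with the receptor's lipid. The line difference of PSME1 changed by 0.60 ± 0.14 with calcium return so pooled (limma adjusted p = 0.0396). That of B2M, the light chain of MHC class I, changed by 0.58 ± 0.14 (adjusted p = 0.0451). Both of these were lost when any step other than 2 h was left out (up to 0.254). In that test 4 of the 14 tested genes of the interferon and antigen presentation list were higher and 0 lower, 28.6% against 11.3% of all tested genes. The others were STAT2, a transducer of interferon signals, at 0.47 ± 0.11 (adjusted p = 0.0346, kept in 1 of 5 fits without a step), and IFI44L, which was kept in all 5 but lay below the filter level on 4 arrays.

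Of the interferon and antigen presentation list, 16 of 22 genes were paired with a probe set and 14 were tested. At 18 h against 0 h 4 were higher, TAP2, ERAP1, IRF1 and IRF2, and 3 were lower, PSME1, MX1 and IFI44L. That is 50% of the tested list, against 27.2% of all tested genes (15% higher and 12.2% lower). The list median was 0.12, against 0.02 over all tested genes. IRF2, an interferon regulatory factor, rose by 0.93 ± 0.12 and the antiviral gene MX1 fell by 1.69 ± 0.20, both in all 10 fits without 1 array. ERAP1, which trims peptides for MHC class I, rose by 0.58 ± 0.13 (limma adjusted p = 0.0177) and was lost without either 0 h array or the Mock 18 h array (up to 0.128), as was IRF1, at 0.80 ± 0.18 (up to 0.114). TAP2 rose by 0.40 ± 0.12 and kept its call in 2 of those 10 fits. IFI44L, an interferon-induced gene, went from 9.26 to 5.90 in Mock and from 9.76 to 5.69 in BLT2 between 0 h and 18 h. The 18 h signals lie below the filter level, so no size is given for its change. Between the lines MX1 and IRF9 were called higher in BLT2 than in Mock, 14.3% of the tested list against 15.9% of all tested genes. The differences were 0.89 ± 0.13 (limma adjusted p = 0.00658) and 0.39 ± 0.09 (adjusted p = 0.0255). That of IRF9 was lost without the 12-HHT arrays (adjusted p = 0.0939).

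**Figure D3:**
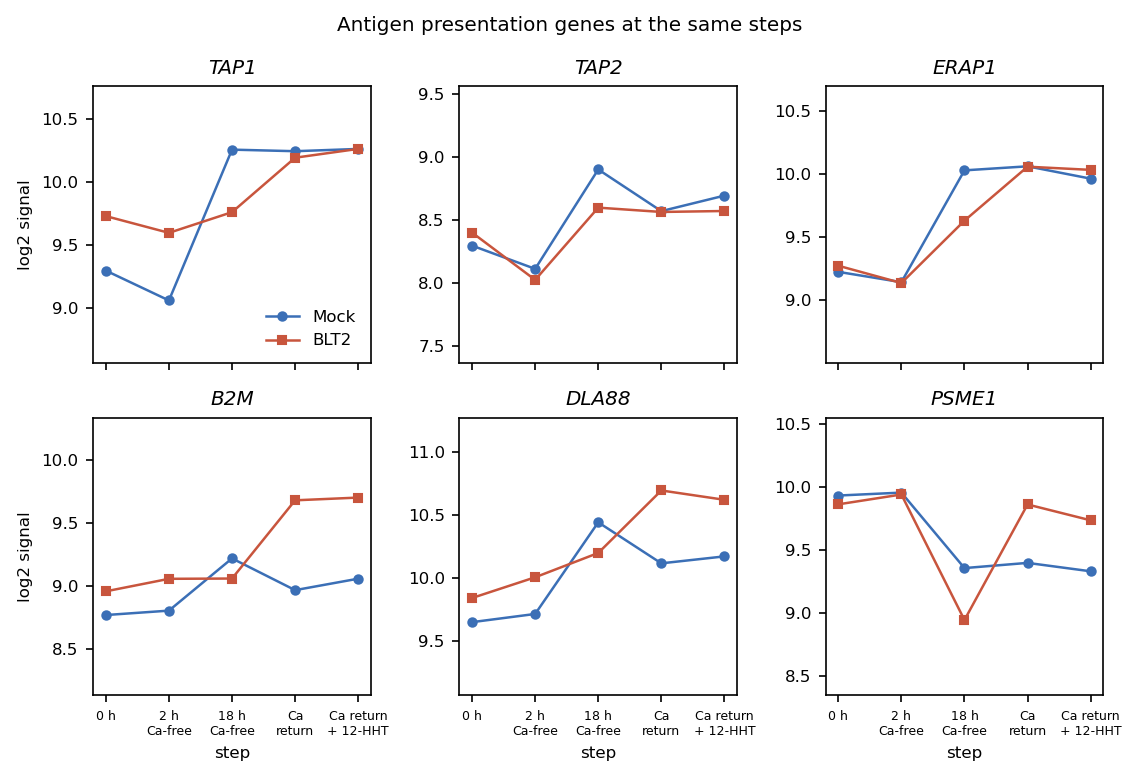
Log2 signal (vertical axes, each panel spanning the same range of values) of 6 genes of the antigen presentation list at 5 steps (horizontal axes), 1 array per point, Mock as circles and BLT2 as squares. TAP1 at 18 h is 10.26 in Mock and 9.76 in BLT2, and PSME1 on calcium return is 9.40 in Mock and 9.86 in BLT2.

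Over all members, 5 of 33 were higher and 3 lower at 18 h against 0 h. That is 24.2% called, against 27.2% of all tested genes, of which 15% were higher and 12.2% lower. The median change was 0.07 for members and 0.02 for all tested genes. The share called was thus close to the background, and the members called went both ways. Leaving out Mock at 0 h gave 1 called member, leaving out BLT2 at 0 h or either line at 18 h gave 2, and leaving out any other array gave 6 to 9.

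In the core, no alpha ring gene passed the test. Of its 5 tested genes, PSMA2, PSMA3, PSMA4, PSMA5 and PSMA7, 0 were called at 18 h, with fitted changes between -0.12 and 0.09. At an unadjusted p under 0.05 the count was also 0, against 4214 of 10498 genes. Of the 7 beta ring genes, PSMB1 and PSMB7 rose and PSMB6 fell. PSMB1, a noncatalytic subunit, read 10.02, 10.10, 10.48, 10.44 and 10.51 in Mock and 9.99, 9.90, 10.36, 10.13 and 10.11 in BLT2. It rose by 0.42 ± 0.11 at 18 h (limma adjusted p = 0.0333), and the call was lost without either 0 h or either 18 h array (up to 0.237). PSMB2, PSMB3 and PSMB4, the other noncatalytic subunits, lay between -0.16 and 0.22 and were not called.

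In the base of the regulatory particle 2 ATPase genes, PSMC4 and PSMC5, rose at 18 h and the scaffold genes PSMD1 and PSMD2 fell. All 5 tested ATPases had positive fitted changes at 18 h, with a median of 0.29, and 2 passed the test. PSMC5 read 8.86, 8.84, 9.41, 9.22 and 9.25 in Mock and 8.60, 8.44, 9.26, 8.79 and 8.85 in BLT2. It rose by 0.60 ± 0.11 (limma adjusted p = 0.00758), and leaving out BLT2 at 18 h or Mock at 0 h ended the call (up to 0.0836). PSMC4 rose by 0.46 ± 0.14 (adjusted p = 0.0428) and kept its call in 2 of 10 fits without 1 array. PSMC1, PSMC2 and PSMC6 were at 0.27, 0.29 and 0.09.

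PSMD1 and PSMD2 encode the large base subunits that hold ubiquitin receptors and shuttle factors, and both fell. PSMD1 read 11.15, 11.01, 10.66, 10.85 and 10.82 in Mock and 11.13, 10.78, 10.56, 10.84 and 10.76 in BLT2. The lowest array of each line was that at 18 h. It fell by 0.53 ± 0.10 (limma adjusted p = 0.00852), and leaving out any 0 h or 18 h array ended the call (up to 0.0789). PSMD2 read 11.49, 11.44, 11.11, 11.16 and 11.20 in Mock and 11.52, 11.38, 11.20, 11.07 and 11.10 in BLT2. It fell by 0.36 ± 0.10 at 18 h (adjusted p = 0.0311), with a change in the fits without 1 array of -0.43 to -0.28 and the call kept in 4 of 10. PSMD4, a ubiquitin receptor of the base, had a fitted change of 0.22 ± 0.09 and was not called.

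**Figure D4:**
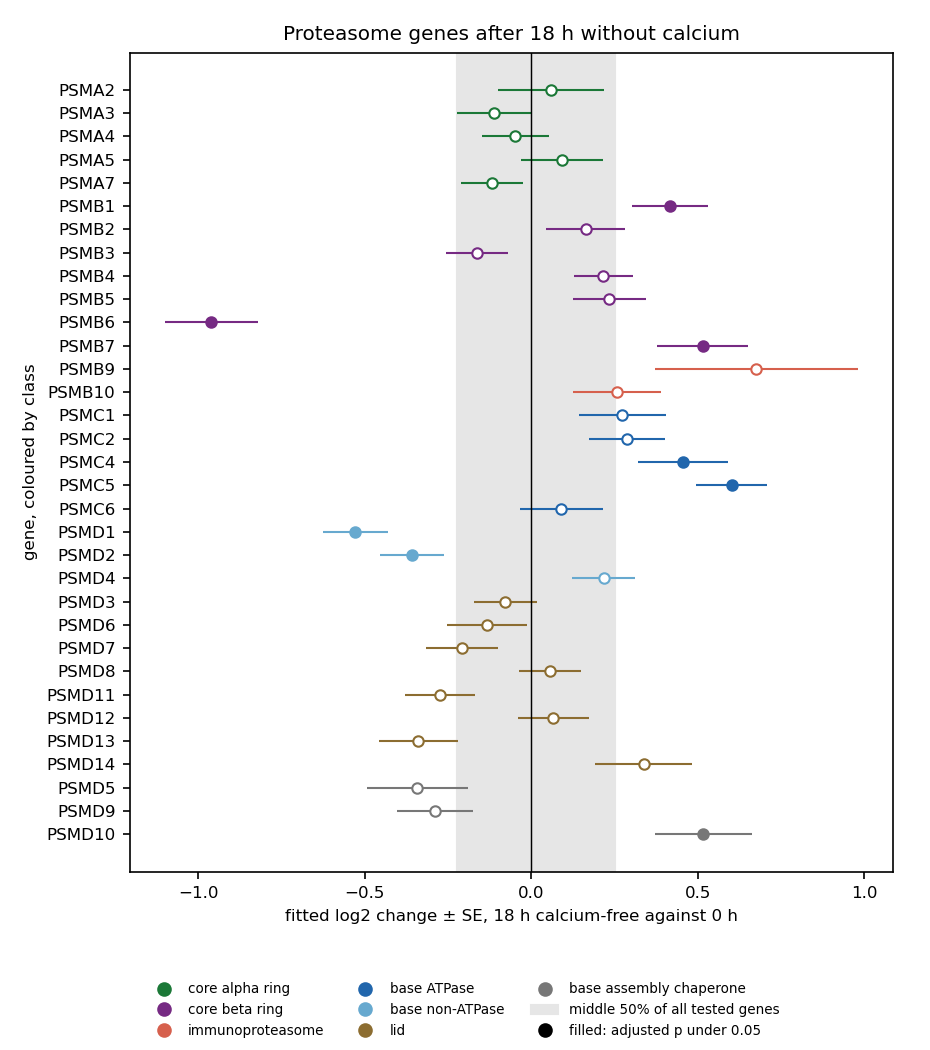
Fitted log2 change at 18 h without calcium against 0 h (horizontal axis, point with SE bar) for the 33 tested proteasome genes (vertical axis), filled where the limma adjusted p was under 0.05. PSMB6 lies lowest at -0.96, PSMD1 and PSMD2 are called lower, and 5 genes are called higher, while the grey band holds the middle of all tested genes from -0.22 to 0.25.

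The lid had 0 of 8 genes called at 18 h in limma, with 2 at an unadjusted p under 0.05, against 4214 of 10498 genes. Its median was -0.11, and PSMD13 at -0.34 ± 0.12 and PSMD14, the enzyme that removes ubiquitin chains, at 0.34 ± 0.15 marked the ends. The base assembly chaperones differed among themselves. PSMD10, known as gankyrin and a partner of PSMC4, rose by 0.52 ± 0.15 (limma adjusted p = 0.0372), a call lost without either 0 h or either 18 h array (up to 0.253). PSMD5, a partner of PSMC2, was at -0.34 ± 0.15 and PSMD9 at -0.29 ± 0.11, both not called.

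Counted from 2 h rather than 0 h, more members were called at 18 h. These comparisons share the 18 h arrays. Between 2 h and 18 h 9 of 33 members rose and 2 fell, 33.3% called against 22.7% of all tested genes (14.3% higher and 8.33% lower), with a median of 0.27 against 0.03. Among them PSMC2, PSMC4, PSMC5 and PSMC6 were 4 of the 5 tested ATPases, led by PSMC5 at 0.69 ± 0.11 (limma adjusted p = 0.00795). The others that rose were PSMA2, PSMB1, PSMB7, PSMD4 and PSMD10, and those that fell were PSMB6 and PSMD9, the latter by 0.49 ± 0.11 (adjusted p = 0.0235). The count rested on particular arrays. Leaving out BLT2 at 18 h gave 1, Mock at 18 h 2, BLT2 at 2 h 3, and any other array 6 to 9.

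The BLT2 array at 2 h was low for most members. At 2 h against 0 h, 31 of 33 members were below 0 in BLT2 and 25 of 33 in Mock, with medians of -0.24 and -0.06. Below 0 lay 55.6% of all measured genes in BLT2 and 51.5% in Mock. In BLT2, 4 members differed by at least 0.5, all lower, which is 12.1% of members against 17.5% of all genes (6.44% higher and 11.1% lower). In Mock 0 members did, against 7.16% (4.88% higher and 2.28% lower). The lowest in BLT2 were PSMD5 at -0.82 and PSMA2 at -0.80. PSMA2 read 9.51 at 0 h, 8.71 at 2 h and 9.55 at 18 h in that line, and 9.47, 9.32 and 9.56 in Mock. This array also had the lowest correlation with the others, and what part that plays was not tested.

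In the fit over both lines, PSMD7 was the 1 member called at 2 h. It encodes the lid partner of PSMD14. That is 1 of 33 members, or 3.03%, against 4.62% of all tested genes (2.64% higher and 1.98% lower). It read 10.95, 10.55, 10.69, 10.85 and 10.82 in Mock and 10.86, 10.23, 10.71, 10.64 and 10.70 in BLT2, with the 2 h array the lowest of each line. It fell by 0.51 ± 0.11 (limma adjusted p = 0.0441). The call was kept in 1 of the 10 fits without 1 array, the fit without the Mock 2 h array, in which 5 members were called, and 0 members were called in the other 9 fits.

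On calcium return against 18 h, 0 of 33 members were called in limma, against 3.34% of all tested genes (0.772% higher and 2.57% lower). The median over members was -0.03. At an unadjusted p under 0.05 there were 4 of 33 members and 2009 of 10498 genes. The smallest p belonged to PSMC5, at -0.33 ± 0.11 (adjusted p = 0.157), and PSMD10, at -0.42 ± 0.15 (adjusted p = 0.18). By line, the PSMD10 value was -0.23 in Mock and -0.61 in BLT2. In BLT2 alone PSMB9 and PSMB10 gained at least 0.5 and PSMD10 lost as much, 9.09% of members against 17.9% of all genes. In Mock alone 0 members moved that far, against 7.83%.

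Calcium return for 2 h did not bring every member back to its 0 h level. Against 0 h, PSMB10 was higher and PSMB6 and PSMD2 were lower, 3 of 33 members or 9.09%, against 15% of all tested genes (7.75% higher and 7.29% lower). PSMD2 was at -0.39 ± 0.10 (limma adjusted p = 0.035) and kept its call in 2 of 10 fits without 1 array. The count was 0 without either 0 h array or either array of calcium return alone. The median over members was -0.03, against 0.03 over all tested genes.

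Differences with 12-HHT on calcium return were small in every tested proteasome gene, and none passed the test. In Mock the difference between the array with and the array without 12-HHT ran from -0.14 in PSMB10 to 0.13 in PSMD6, and in BLT2 from -0.17 in PSMB9 to 0.16 in PSMD6. Thus 0 of 33 members reached 0.5 in either line, against 0.275% of all genes in Mock and 0.699% in BLT2. In the fit over both lines limma called 0 members and 0 of 10498 genes (0% called), with 0 members and 29 genes at an unadjusted p under 0.05. Whether effects of this size could have been detected was not tested.

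In the fit over all 5 steps, PSMC5 and PSMA5, a subunit of the alpha ring, were called lower in BLT2 than in Mock. These are 2 of 33 members, or 6.06%, against 15.9% of all tested genes (7.82% higher and 8.13% lower), and the median over members was -0.05. For PSMC5 the BLT2 minus Mock difference ran from -0.43 to -0.14 over the 5 steps, with a fitted difference of -0.33 ± 0.07 (limma adjusted p = 0.0203). PSMA5 read 10.35, 10.32, 10.57, 10.56 and 10.64 in Mock and 10.35, 9.90, 10.31, 10.23 and 10.24 in BLT2, with a fitted difference of -0.28 ± 0.08 (adjusted p = 0.0491). Its lines were alike at 0 h and apart at the 4 other steps. PSMC5 lost its call without any of the 4 arrays of calcium return (up to 0.0816), and PSMA5 kept it in 2 of 10 fits (up to 0.168).

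The median of BLT2 minus Mock over the 33 members was 0.01 at 0 h, -0.17 at 2 h, 0.01 at 18 h, and -0.10 on calcium return both without and with 12-HHT. At 2 h, 29 of the 33 members were below 0, the most of any step. That is 87.9% of members, against 58.5% of all measured genes. At 0 h 0 members differed by at least 0.5, against 5.66% of all genes (2.75% higher and 2.9% lower). At 2 h 3 did, PSMA2 and PSMD5 lower in BLT2 and PSMB9 higher, 9.09% against 17% (7.28% higher and 9.74% lower). At 18 h it was 1, PSMB9, at -0.86, 3.03% against 5.2% (2.56% higher and 2.63% lower). On calcium return it was PSMD10, at -0.52 without and -0.53 with 12-HHT, 3.03% of members at each of these steps. Of all genes 17.5% (11.9% higher and 5.59% lower) and 17.6% (10.1% higher and 7.51% lower) differed as far.

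The test of whether the line difference changed with calcium return compared the mean of its 2 steps with the mean of the 3 before it. Its error is the scatter of the line difference among the steps pooled, as no step had replicate arrays. Of the 2 steps of calcium return, 1 had the lipid of the receptor added. The test thus does not separate calcium return from the lipid. The test called 0 of 33 members in limma, against 11.3% of all tested genes (8.5% higher and 2.84% lower). At an unadjusted p under 0.05 there were 7 of 33 members and 3318 of 10498 genes. PSMD10 came nearest, its difference going from -0.12 to -0.53, a change of -0.40 ± 0.10 (adjusted p = 0.0501). All 5 tested base ATPases shifted downward, with a median of -0.20, and PSMC1 went from 0.01 to -0.33 (adjusted p = 0.0736). Of the 7 core beta ring genes 5 shifted downward too, with a median of -0.16. Of all 10498 tested genes, 4897 did. When the 2 h step was left out 3 members were called. Quantile normalization and a variance trend each called 3 members, a stricter signal filter 2 and the mean over probe sets 1, so the count of 0 depends on these settings.

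**Figure D5:**
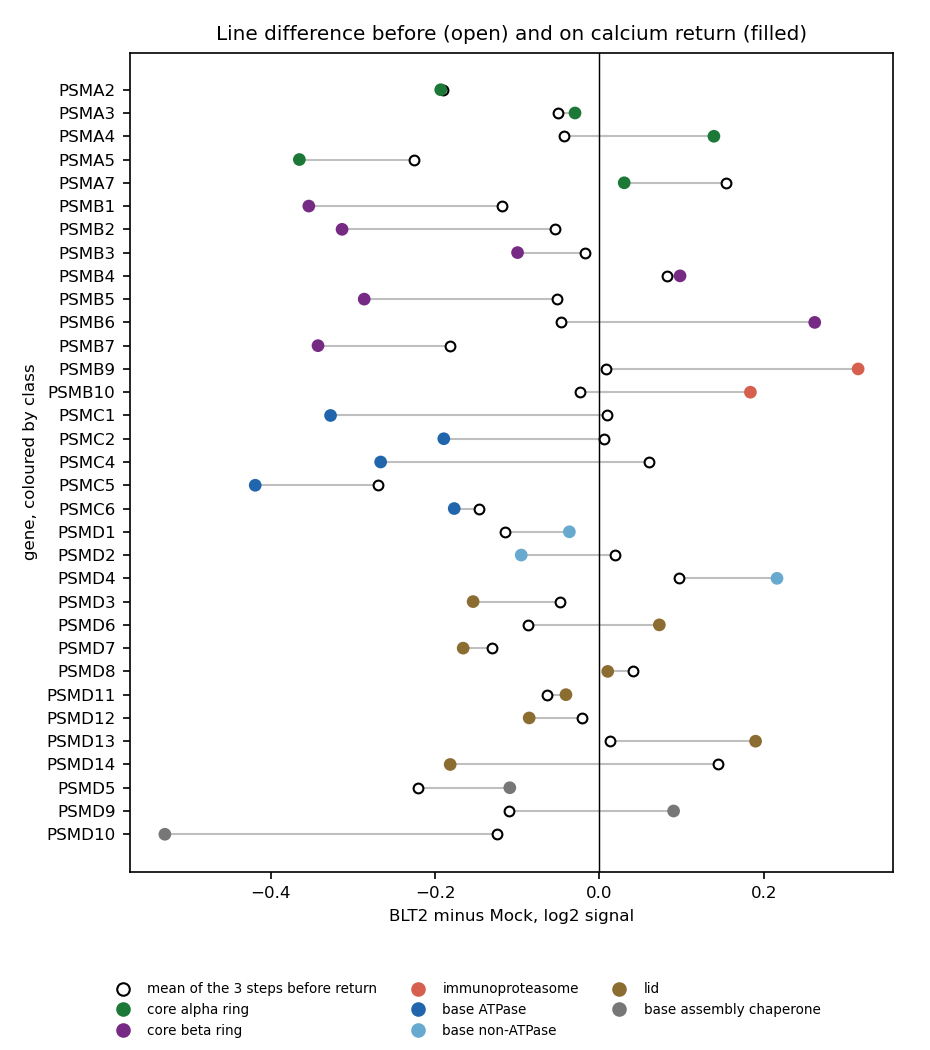
BLT2 minus Mock difference in log2 signal (horizontal axis) for the 33 tested proteasome genes (vertical axis), as the mean of the 3 steps before calcium return (open circles) and the mean of the 2 steps of calcium return (filled circles, coloured by class). The largest shift is that of PSMD10, from -0.12 to -0.53, and the base ATPases and most core beta ring genes shift downward.

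Among genes that work with the proteasome, 15 of 19 partner and assembly genes had a probe set and all 15 were tested. At 18 h against 0 h 1 was higher and 3 were lower, with a median of 0.02. The share called, 26.7%, was close to the 27.2% of all tested genes. PAAF1, a chaperone that binds PSMC5 during assembly of the base, rose by 0.46 ± 0.11 (limma adjusted p = 0.0243). UCHL5, a deubiquitinase of the regulatory particle, fell by 0.50 ± 0.09, HSP90AA1, a cytosolic chaperone, by 0.46 ± 0.09 and PSMG1, a chaperone of core assembly, by 0.44 ± 0.09. These 4 calls were lost without either 0 h or either 18 h array (adjusted p of up to 0.187). PSMF1, which binds the core and can inhibit it, was higher in BLT2 than in Mock by 0.49 ± 0.07 (adjusted p of up to 0.0224 in the fits without 1 array).

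Of the genes known to control proteasome genes, 13 of 14 were tested. NFE2L1 read 9.65, 9.97, 10.38, 10.07 and 10.14 in Mock and 9.59, 10.04, 10.22, 10.36 and 10.25 in BLT2. Both 0 h arrays were the lowest of their line. It rose by 0.67 ± 0.12 at 18 h (limma adjusted p = 0.00846), and leaving out BLT2 at 0 h or Mock at 18 h ended the call (up to 0.0701). At 18 h 5 of the 13, or 38.5%, rose and 0 fell, against 15% higher and 12.2% lower of all tested genes, the others being MAFF and MAFK, small MAF partners of NFE2L1, the transcription factor STAT3 and NFYA, a subunit of the factor that binds CCAAT boxes. NFYA rose by 0.98 ± 0.11, kept its call in all 10 fits without 1 array, and fell again by 1.07 ± 0.11 on calcium return (adjusted p of up to 0.13, lost without either 18 h or the Mock calcium return array). MAFF, MAFK and STAT3 kept theirs in 5, 7 and 8 of the 10 fits.

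At 2 h, NFE2L2, the oxidative stress relative of NFE2L1, rose by 0.57 ± 0.09 (limma adjusted p = 0.0178), while NGLY1, the deglycosylase that NFE2L1 needs for activity, fell by 0.61 ± 0.11 (adjusted p = 0.0264). MAFF was called higher too, at 8.32 in Mock and 7.79 in BLT2, but its 0 h signals of 6.67 and 6.83 lie below the filter level and no size is given. NFE2L2 was lost without either 0 h or the BLT2 2 h array (up to 0.189), MAFF without either 0 h array (up to 0.14), and NGLY1 was kept in 3 of 10 fits. The list had 2 genes higher and 1 lower at that step, 23.1% of its tested genes against 4.62% of all. The members themselves, on the same arrays, had 0 higher and 1 lower. Between the lines NFE2L2 was higher in BLT2 than in Mock by 0.26 ± 0.06 (limma adjusted p = 0.0256). It was the 1 gene of the list called there, 7.69% against 15.9% of all tested genes, and was lost without the 12-HHT arrays.

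Of the ubiquitin and delivery list, 13 of 18 genes had a probe set and were tested. At 18 h 23.1% of them were called, against 27.2% of all tested genes. UFD1 rose by 0.39 ± 0.11 and 2 genes fell, the segregase VCP by 0.52 ± 0.11 (limma adjusted p of up to 0.112 without 1 array) and its adaptor NSFL1C by 0.41 ± 0.10 (up to 0.145). UFD1, which works with VCP, kept its call in 4 of 10 fits and VCP and NSFL1C each in 6, being lost without either 0 h or either 18 h array. The list median was -0.03. NSFL1C was higher in BLT2 than in Mock by 0.65, a call kept in all 10 fits without 1 array (up to 0.0102).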

How the data were processed

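The deposited values are log2 signals per probe set of GeneChip Canine Gene 1.0 ST arrays, the log scale being read from their range of 1.55 to 14.1. The submitters' processing notes name GCRMA, which corrects background by probe sequence and normalizes between arrays, and Affymetrix Expression Console, without versions. Because the authors normalized the arrays together, a shift of all genes on an array cannot be seen.

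Of 32391 probe sets, 16545 carried 1 gene symbol, 370 several and 15476 were not listed. These gave 15947 genes, and 10498 passed the filter, a signal on 2 or more arrays above 7.21, the overall median. No column lacked a sample. Two-sided tests used limma 3.58.1 in R 4.3.3, with 4 residual degrees of freedom and a prior of 3.46 (3 and 4.11 for the change of the line difference). Comparisons of 1 array with 1 array have no test and use a log2 difference of 0.5. The number of arrays limits the precision. Whether the 3 mixed preparations came from separate cultures is not stated in the labels.

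Values on all arrays are given for the 6 catalytic and immunoproteasome subunits and for up to 3 called members per comparison, by size. Other genes are named where they are members, where a list gene was called, or, chosen after their values were seen, TAP1, B2M and PSMA2. The list genes PSME2, in the text, and DLA88, in a figure, are shown though neither was called. The members and lists were chosen with earlier results of these data known. The fits were tested on simulated data, with changes planted in 200 of 10498 genes per comparison. A planted log2 change of 0.5 was recovered in 20.6% to 33.8% of such genes in comparisons of steps. Between lines 61.8% were recovered, and for the change of the line difference 0%. At a planted change of 1 the last share was 43.9%. Planted changes of 0.5 were thus often missed in comparisons of steps. The share missed in the reported fits, where 27.2% of tested genes were called at 18 h against 0 h, was not tested. The alternatives were filters, scaling, probe set choice, variance trend and arrays left out.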

Additional observations from a re-analysis of the deposited data

Results flagged for a closer look

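PSMB9 and PSMD5 moved in opposite directions in the lines, with a gap of at least 0.5 between them. Each value compares 1 array with 1 array, so these differences were not tested. PSMB9 between 2 h and 18 h without calcium was 1.37 in Mock and -0.069 in BLT2, and between 18 h and calcium return -0.27 in Mock and 0.95 in BLT2 (log2). These share the 18 h arrays. PSMD5 between 2 h and 18 h was -0.084 in Mock and 0.43 in BLT2. The PSMD5 signal on the BLT2 2 h array, 9.46, is the lowest of its 10 values, and its second probe set ran from 9.52 to 10.00.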

How the results depend on the processing

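The labels give no replicate numbers to pair on. Line is a term of the fit, so steps are compared within lines, and the change of the line difference was tested on differences paired by step. None of the 25 calls of members changed direction under the alternatives run for them. Of these, the variance trend kept 25, the mean over probe sets 24 (PSMD4 between 2 h and 18 h was lost), quantile normalization 21, centring each array on its median 18, leaving out the 12-HHT arrays 16 and testing without a signal filter 13. Leaving out 1 array at a time kept 131 calls and ended 119. The median over members at 18 h against 0 h ran from -0.01 to 0.18 in those fits. The numbers of calls kept and ended count some identical fits more than once, as leaving out either array of a step outside a comparison changes nothing else.

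Members called at 18 h against 2 h numbered 17 with a variance trend and 6 without a filter (11 as reported). At 18 h against 0 h they were 4 without a filter and 18 with the 4 arrays of the comparison alone (8 as reported). At 2 h they were 0 with centring, without a filter or without the 12-HHT arrays, and 3 with 4 arrays (1 as reported). Between lines they were 1 with centring, without a filter or with quantile normalization, and 0 without the 12-HHT arrays (2 as reported). For the change of the line difference they were 3 with a variance trend or quantile normalization, 2 with the stricter filter and 1 with the mean over probe sets (0 as reported). Leaving out 1 array gave 1 to 9 members at 18 h against 2 h, 1 to 9 at 18 h against 0 h, 0 to 5 at 2 h, 0 to 2 between lines, 0 to 3 at calcium return against 0 h, 0 to 3 for the change of the line difference (1 step left out), and 0 to 0 for calcium return against 18 h and for 12-HHT.

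Line differences of at least 1 rather than 0.5 were 0 at 2 h, 18 h and both steps of calcium return. With centring the counts past 0.5 were 6 at 2 h and 0 at calcium return, where quantile normalization gave 2. Without a filter 2 members passed at calcium return with 12-HHT, and 1 for 12-HHT in BLT2. The split of higher and lower calls at 18 h against 2 h was 9 and 2 as reported and 6 and 3 with quantile normalization, and at calcium return against 0 h 1 and 2 as reported and 1 and 1 with centring.

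Over all genes, 4 arrays alone called 5460 at 18 h against 0 h (2860 as reported), 1805 at 2 h (485), 643 at calcium return against 0 h (1579) and 168 against 18 h (351). Centring called 312 at 2 h. Testing without a filter called 309 at 2 h, 230 at calcium return against 18 h and 607 for the change of the line difference (1190). Leaving out the 12-HHT arrays called 298 at 2 h, 228 at calcium return against 18 h and 575 between lines (1674). The causes of these shifts were not tested. The absence of replicate arrays limits every comparison.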

Other observations

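PSMA1, PSMA6 and PSMC3 share their probe sets with a second gene symbol and were therefore not counted as members. The probe set of PSMA6 and a second symbol read 11.38, 11.40, 11.77, 11.80 and 11.77 in Mock and 11.41, 11.31, 11.68, 11.61 and 11.60 in BLT2 (log2 signal, in the order of steps). That of PSMC3, the base ATPase not tested above, read 10.22, 10.18, 10.49, 10.44 and 10.62 in Mock and 10.40, 10.06, 10.53, 10.55 and 10.61 in BLT2. That of PSMA1 stayed between 10.26 and 10.53 on the 10 arrays. In both lines the first 2 were higher at 18 h than at 0 h.

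PSMD4 and PSMD5 each had a second probe set. For PSMD5 it changed by -0.24 in Mock and -0.38 in BLT2 from 0 h to 18 h, against -0.30 and -0.39 for the one used. For PSMD4 it lay below the filter level throughout, at 6.46 to 6.85.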
